A study of Mus musculus with 2 samples.

Results

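The cytosolic ribosomal protein genes are the protein-coding genes of the mouse mm9 annotation whose symbol is Rpl or Rps followed by a digit. The 10 genes of the Rps6k kinase family and the retrocopies, which carry -ps in their symbol, were left out. This gave 81 of 22367 coding genes, with 48 Rpl symbols for the large subunit and 33 Rps symbols for the small subunit. Of these, 72 encode proteins of the standard ribosome (42 large and 30 small), 8 are paralogues, and Rps19bp1 encodes a protein that binds Rps19 and is not itself part of the ribosome. Open chromatin at their start sites was assayed by ATAC-seq, which reads out the DNA that a transposase can reach and tag with adapters. The cells were enteroids, epithelial cultures grown here from ileal crypts of C57Bl6/129sv mice aged 4 months. Both cultures carried the lox-flanked Taf4 gene, whose product is part of TFIID, the factor that recognises core promoters, and both were given 1 µM 4-hydroxytamoxifen (4-OHT) for 3 days. Control enteroids (Taf4 lox/lox) had no Cre, and in Taf4-inactivated enteroids (Taf4 lox/lox::VilCreERT2) the villin promoter, active in intestinal epithelium, drove the 4-OHT-dependent recombinase that deletes Taf4. There was 1 library per genotype, so every difference given here describes these 2 libraries and has no replicate check, and an effect of the recombinase itself cannot be told apart from that of Taf4 loss.

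Ribosomal proteins bind ribosomal RNA and, one copy of each, build the large subunit, which joins amino acids, and the small subunit, which reads the mRNA. Their genes are transcribed in nearly every cell, at a high rate in dividing ones such as intestinal crypt cells, so that all parts are made in matching amounts. Many of their transcripts begin with a C followed by a run of pyrimidines, the terminal oligopyrimidine (TOP) tract, through which the mTOR pathway sets their translation. Many of the genes also carry small nucleolar RNA (snoRNA) genes in their introns.

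The authors called broad peaks in each library separately, and each peak has a fold over the background of its own library, averaged over the peak. Folds are not on a common scale between the libraries, so each peak is described by the percentile of its fold among all peaks of its list, where 100 is the peak with the highest fold. The control list held 90445 peaks and the Taf4-inactivated list 71282, and the background level solved from fold and p was 1.65 times higher in control (12.1 against 7.35 reads), an estimate of the ratio of sequencing depth. Of 7 epithelial marker genes, 6 had a start site peak in control (all but Krt20) and 7 in Taf4-inactivated enteroids, at median percentiles of 89.7 and 77.5. Of 12 markers of immune, stromal, endothelial, muscle and neural cells, 9 and 7 did, at median percentiles of 52.7 and 35.3, and the immune markers Ptprc and Cd3e had none in either list. The targeted gene, annotated as Taf4a, kept its start site peak, which does not report on the deleted exons.

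The sequences around the start sites show what many of these genes share beside their product. They run from 40 bases before to 20 bases after the RefSeq start (RefSeq starts of GRCm38.p6, placed on mm9 by an exact match of the promoter sequence, coding strand). A pyrimidine tract, a C followed by at least 5 pyrimidines within 20 bp of the start, stands in capitals. The first 4 were chosen for their long tracts and Rps6 as a member known for its regulation. The next 3 also have a tract and are described below for their rank or the position of their peak, and the last 3, all in small letters, hold none and are described for their rank.
Rpl27a (chr7:116662669-116662729, plus strand): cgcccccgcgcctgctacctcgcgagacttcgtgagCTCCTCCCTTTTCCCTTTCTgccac
Rpl34 (chr3:130433235-130433295, minus strand): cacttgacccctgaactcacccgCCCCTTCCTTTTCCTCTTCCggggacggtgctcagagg
Rpl35 (chr2:38860631-38860691, minus strand): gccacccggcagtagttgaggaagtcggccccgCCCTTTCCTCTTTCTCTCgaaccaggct
Rpl15 (chr14:19103480-19103540, minus strand): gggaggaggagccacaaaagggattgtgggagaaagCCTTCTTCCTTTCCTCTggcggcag
Rps6 (chr4:86503251-86503311, minus strand): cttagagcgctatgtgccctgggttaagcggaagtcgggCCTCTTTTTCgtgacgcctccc
Rpl22l1 (chr3:28704390-28704450, plus strand): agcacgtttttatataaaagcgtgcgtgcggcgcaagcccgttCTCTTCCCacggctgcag
Rps27 (chr3:90017550-90017610, minus strand): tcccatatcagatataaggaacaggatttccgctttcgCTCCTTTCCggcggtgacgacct
Rpl18 (chr7:52973401-52973461, plus strand): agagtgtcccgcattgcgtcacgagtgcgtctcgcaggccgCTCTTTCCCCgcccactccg
Rpl27 (chr11:101303519-101303579, plus strand): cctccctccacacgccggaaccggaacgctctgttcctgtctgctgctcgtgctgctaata
Rps28 (chr17:33961487-33961547, minus strand): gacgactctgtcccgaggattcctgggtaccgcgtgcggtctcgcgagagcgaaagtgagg
Rps4x (chrX:99384710-99384770, minus strand): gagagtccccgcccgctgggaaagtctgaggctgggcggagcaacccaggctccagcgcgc

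The tracts of Rpl27a and Rpl34 were 20 bases long, that of Rpl35 18 and that of Rpl15 17, and the one of Rps6, the substrate of the S6 kinases, was 10. Of the 60 genes with a RefSeq start placed on mm9, 38 (63.3%) held such a tract, against 29.9% of 14861 coding genes in the RefSeq table. Measured at the main start site of the mm9 annotation, which is the start that most coding transcripts of a gene use, the share was 42 of 81 (51.9%), against 29.2% of all coding genes. The main start lay within 50 bp of the RefSeq start in 47 of the 60 genes. A tract is a match of letters at an annotated start and was not measured in RNA.

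Other promoter letters were counted on both strands from 100 bp before to 50 bp after the main start. The ETS letters CCGGAAG stood in 23 of the 81 windows (28.4%), against 8.41% of all coding genes. The YY1 letters AAGATGG stood in 11 (13.6%, against 4.22%). These shares stood beside similar ones in the mitochondrial ribosomal protein genes (34.2% and 15.8% of 76) and in the proteasome subunit genes (31.4% and 15.7% of 51). The ends of the ETS and YY1 letters can share the bases AAG. GC box letters (GGGCGG) stood in 46.9% of the windows, against 37.2% of all coding genes, CCAAT in 19.8% against 23.3%, and TATAAA in 7 windows (8.64%, against 7.27%). Rpl22l1 shows TATAAA in the sequence printed above, before its tract.

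The gene bodies were short, with a median length of 3232 bp against 15679 bp for other coding genes. In 28 of the 81 (34.6%) the annotation placed at least 1 snoRNA gene in the same orientation, 54 in all. Such a gene lay in 1.09% of other coding genes and in 0 of 76 mitochondrial ribosomal protein genes. Rpl4 held 5, and Rpl13a and Rpl7a held 4 each. A coding gene began within 1 kb upstream in the opposite direction in 11 (13.6%), against 7.45% of other coding genes and 28.9% of the mitochondrial list.

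**Figure D1:**
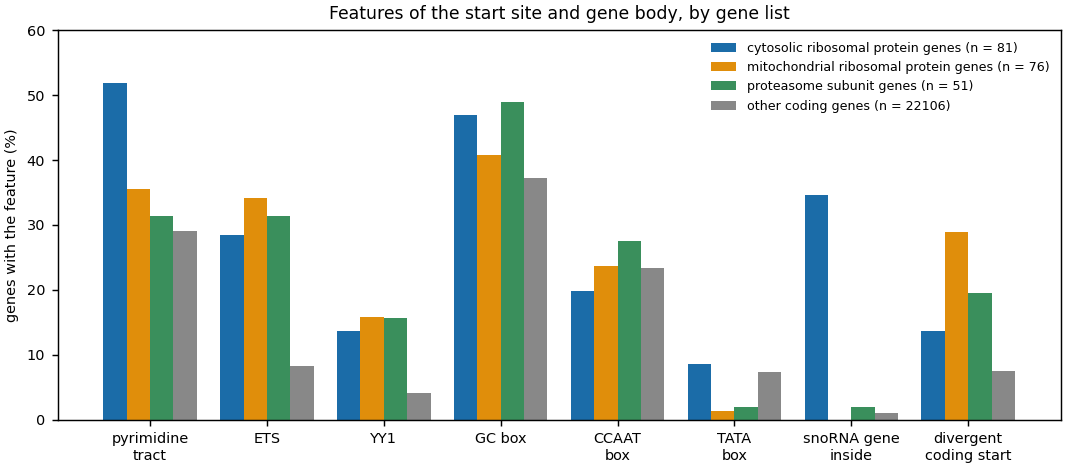
Share of genes (%) with each promoter letter group, with a snoRNA gene in the gene body and with a divergent coding start, in 4 gene lists (bars). The cytosolic ribosomal protein genes stand highest for the pyrimidine tract (51.9%) and for snoRNA genes (34.6%), whereas the ETS letters are at like shares in all 3 named lists.

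Nearly all of these genes had open chromatin at a start site, in both genotypes. A peak lay within 1 kb of an annotated start in 78 of 81 genes in each list (96.3%, exact 95% interval 89.6 to 99.2, counting error only). The background over all coding genes was 68.4% in control and 65.6% after inactivation. The share was at the level of the mitochondrial list (75 and 76 of 76) and the proteasome list (49 and 50 of 51). Of the 72 genes of the standard ribosome, 71 had a peak in control and 72 after Taf4 inactivation. The 53 retrocopies annotated as coding had a peak in 4 genes in each list and none of these covered the start.

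The genes without a peak were mostly paralogues. Rpl10l, the autosomal retrogene paralogue of X-linked Rpl10 known from testis, had none in either list, and the nearest peaks lay at 43388 bp (control) and 275995 bp (Taf4-inactivated). Rpl39l, the paralogue of Rpl39 with the same known site of expression, also had none, with the nearest at 22247 and 22440 bp. Rps4y2, a paralogue of Rps4x, had a peak of 312 bp at percentile 62.0 in control and none after inactivation, where the nearest was 81848 bp away. Only 1 gene of the standard ribosome was without a peak: Rpl36, a large subunit protein, had none in control, with the nearest 2220 bp away, and a peak of 410 bp at percentile 71.2 in Taf4-inactivated enteroids. The other 5 paralogues had a peak in both lists.

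At 4 genes the counted peak did not lie on the main start in at least 1 list. Thus 74 control (94.9%) and 75 Taf4-inactivated peaks (96.2%) covered it, against 80.9% and 82.5% over all coding genes with a peak. These shares were 93.3% and 97.4% in the mitochondrial list, and 89.8% and 96.0% in the proteasome list. Rpl18, whose start sequence with a 10-base tract is printed above, had no peak within 1 kb of its main start. Relative to the main start (negative is upstream), its counted control peak reached from 2283 to 3215 bp. Its counted Taf4-inactivated peak reached from −3513 to −2631 bp, and each lay near another annotated start of the gene. Both lists held a peak at both sites, with the uncounted ones from −3439 to −2732 bp (control) and from 2776 to 3190 bp (Taf4-inactivated). Rpl3l, a paralogue of Rpl3 known from muscle, was likewise counted through a start at −4856 bp from its main start. With the main starts alone, Rpl18 and Rpl3l dropped out of both lists, which left 93.8%. At Rpl35 the peak began 234 bp (control) or 266 bp (Taf4-inactivated) downstream of the main start and covered the RefSeq start at 493 bp, where the printed tract lies. At Rpl17 the control peak began 25 bp downstream of the start and the Taf4-inactivated peak covered it.

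The strength of the call differed between the lists. With peaks of a −log10 q of at least 5 only, 44 of the 81 genes (54.3%) kept a peak in control and 74 (91.4%) in Taf4-inactivated enteroids. Over all coding genes, 35.5% and 46.5% did. The lists most like the members rose alike, the mitochondrial list from 57.9% to 89.5% and the proteasome list from 66.7% to 88.2%. The median −log10 q of the member peaks was 5.53 in control and 10.2 after inactivation, against 5.0 and 8.63 for other coding genes. These q values scale with depth and background in each library, and the part of depth in this difference was not tested.

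**Figure D2:**
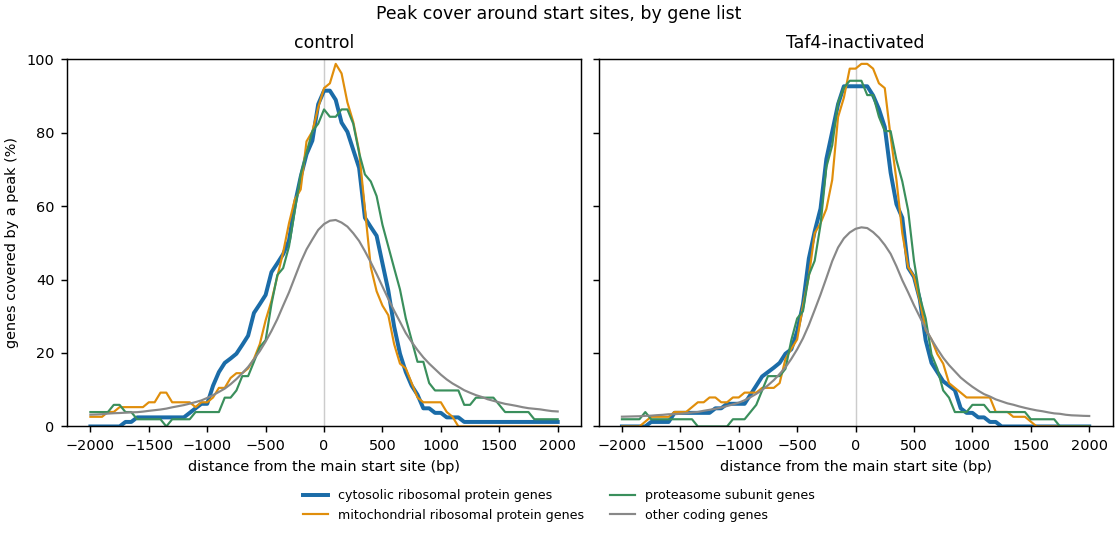
Share of genes (%) covered by a peak at each distance (bp) from the main start site, by gene list (lines), for each genotype. The cytosolic ribosomal protein genes reach 91.4% in control and 92.6% in Taf4-inactivated enteroids, and other coding genes 56.2% and 54.2%. The mitochondrial list reaches 98.7% in both, and the proteasome list 86.3% and 94.1%.

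Within each list the peaks of these genes ranked from near the bottom to near the top. The median percentile was 88.3 in control (quartiles 62.1 and 94.0) and 86.5 in Taf4-inactivated enteroids (75.6 and 92.3). Other coding genes with a peak had medians of 85.6 and 80.3, the mitochondrial list 88.1 and 86.9, and the proteasome list 92.2 and 90.4. In the top 10% of the list by fold were 35 of 78 peaks (44.9%) in control, against 40.6% of all coding genes with a peak, and 27 (34.6%) after inactivation, against 31.0%. In both lists at once, 19 of 77 genes (24.7%) were there, against 28.1%. The shares of these genes in the top of a list were thus close to the background of start sites.

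The highest ranks in control belonged to Rpl22l1, a paralogue of Rpl22, with percentile 99.3, and to the large subunit genes Rpl27 and Rpl15, both at 99.0. In Taf4-inactivated enteroids they stood at 97.4, 99.4 and 98.1. Rpl37 followed with 98.2 and 97.6 and Rpl35a with 98.1 and 85.2. Rpl27a was at 96.9 in control and 97.5 after inactivation. All but Rpl35a thus stayed among the top 10% of both lists. At the RefSeq start, as printed above, a tract was present at Rpl15 and Rpl27a and absent at Rpl27, whereas at the main start of the annotation it was present at Rpl27 and absent at the other two. Over all members, the 42 genes with a tract at the main start had median percentiles of 88.3 and 88.9, and the 39 without one 88.2 and 82.9.

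The lowest ranks in control were those of Rpl10a (percentile 7.25), Rpl3l (15.2), Rps28 (16.6), Rpl8 (19.3) and Rpl38 (22.6). Rpl8 sits near the peptidyl transferase centre, and Rpl38 is known from mutant mice with altered translation of Hox transcripts. In Taf4-inactivated enteroids Rpl3l (8.06), Rpl10a (34.5), Rpl18 (39.9) and Rpl32 (43.8) were the only members below percentile 50, and Rps16 followed with 57.6.

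Of the members chosen for functions beyond translation, or for disease, all but Rpl38 (22.6 and 62.0) lay between percentiles 71.5 and 96.4. Rps6 stood at percentile 95.1 in control and 96.2 after inactivation. Rps3, which also acts in DNA repair, stood at 93.4 and 93.1, and Rps19, mutated in Diamond-Blackfan anaemia, at 93.0 and 93.5. Rps27a, made as a fusion with ubiquitin, had 93.0 and 88.1, and Rps14 73.4 and 71.5. Rpl5 and Rpl11, which together bind and inhibit Mdm2, had 96.4 and 86.6, and 78.0 and 93.9. Rpl10, which joins the large subunit late in its assembly, had 96.4 and 89.3, Rpl13a, which takes part in translational silencing after interferon, 89.3 and 88.9, and Rpl22 90.3 and 91.6. Among the chosen members Rpl38 differed most, by 39.4 points, and Rpl11 next, by 15.9 points, both with the higher rank after inactivation.

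**Figure D3:**
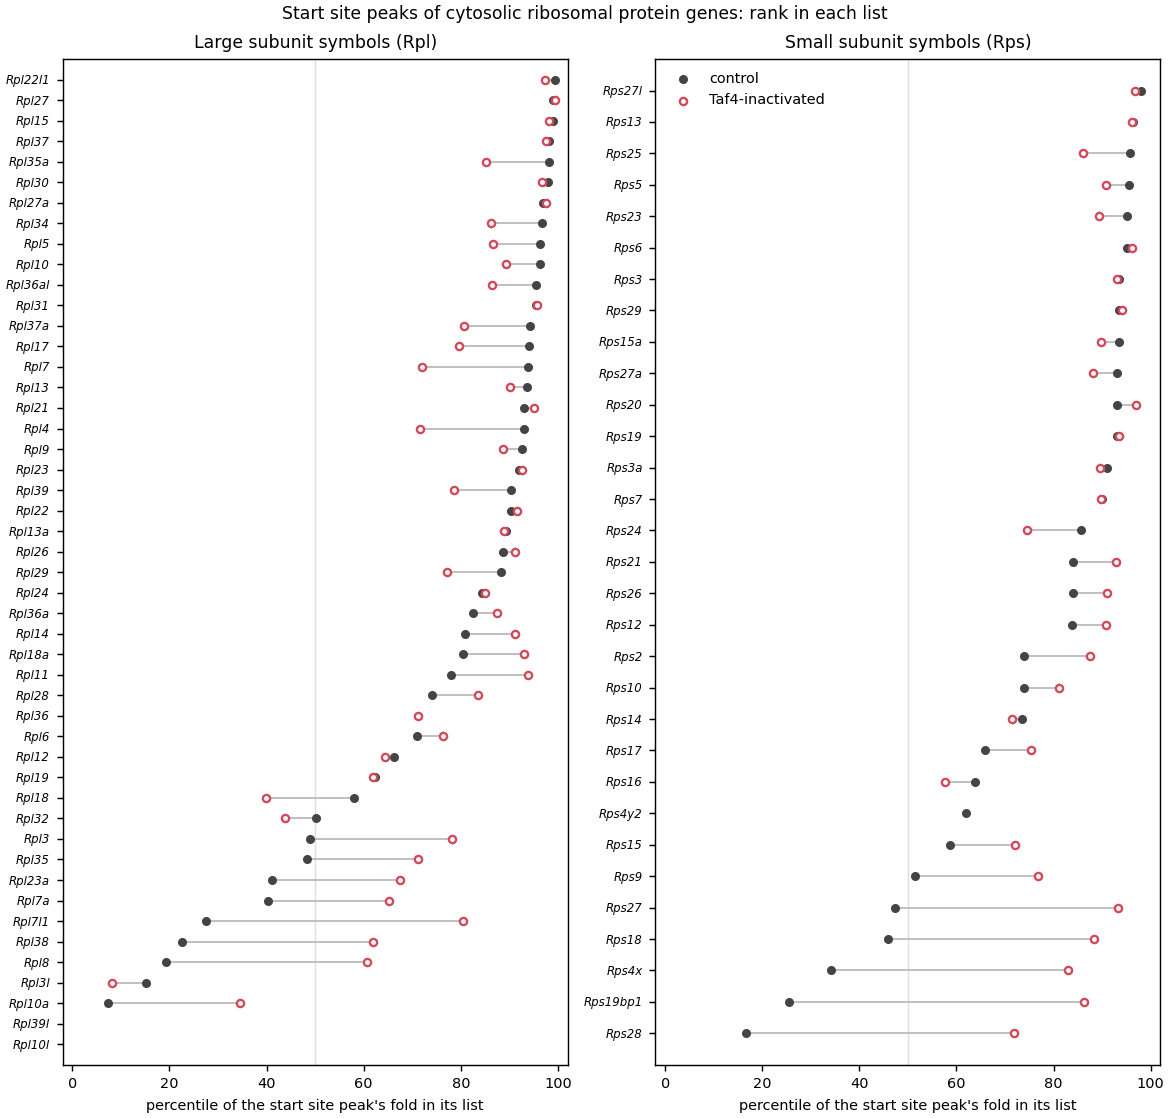
Percentile of the start site peak's fold in its own list for each of 79 genes (2 are not shown), in control (filled points) and Taf4-inactivated enteroids (open points), sorted by the control value, with a line at percentile 50. Genes without a point have no peak in that list, and the longest lines belong to genes low in control, such as Rps19bp1 (25.6 and 86.2) and Rps28 (16.6 and 71.8).

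The median rank of these genes was nearly the same in both genotypes. Over the 77 genes with a peak in both lists, the median difference, Taf4-inactivated minus control, was 0.433 percentile points (quartiles −4.88 and 10.4). The rank was higher after inactivation in 40 genes and higher in control in 37, against 4869 and 9145 of all 14014 coding genes with a peak in both lists. For other coding genes the median was −2.82, for the mitochondrial list 0.351 and for the proteasome list −1.55. The difference was 10 points or less in 47 of the 77 genes (61.0%), close to the 58.6% of all coding genes. Ranked only among the start site peaks counted for coding genes, the members had a median difference of 8.21 points, and all coding genes one of −1.86. Of the members, 49 were then higher after inactivation and 28 higher in control. By this ranking the mitochondrial list had a median difference of 6.35 points (52 higher after inactivation and 23 in control). The proteasome list had one of 2.51 (31 and 18).

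By fold in the whole list, the large differences went in 1 direction. In 14 genes (18.2%) the rank was at least 25 points higher after Taf4 inactivation, against 6.90% of all coding genes, and in 0 it was at least 25 points higher in control, against 9.49%. In the mitochondrial list 6 of 75 were that much higher and 1 lower, and in the proteasome list 2 of 49 each. Among the counted start site peaks alone, 13 of 77 members were that much higher and 3 lower. By this ranking 12 of 75 were higher and 1 lower in the mitochondrial list, and 7 of 49 and 2 in the proteasome list. The shares higher after inactivation were then alike in the 3 lists, against 7.11% of all coding genes. The 14 genes had 7 Rpl and 7 Rps symbols and lay on 7 chromosomes. Of them, 12 encode proteins of the standard ribosome (16.9% of 71), and the others were Rps19bp1 and the paralogue Rpl7l1.

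The largest difference was that of Rps19bp1, from percentile 25.6 in control to 86.2 in Taf4-inactivated enteroids, at chr15:80094594-80095021 and chr15:80094554-80094967. Rps28, a small protein of the small subunit, went from 16.6 to 71.8, with a control peak of 229 bp at chr17:33961446-33961674 inside a Taf4-inactivated peak of 424 bp. Rpl7l1, a paralogue of Rpl7 that acts in assembly of the large subunit, went from 27.5 to 80.4. X-linked Rps4x went from 34.1 to 82.9 and Rps27 from 47.4 to 93.3. Rps18 went from 46.0 to 88.4, Rpl8 from 19.3 to 60.7 and Rpl38 from 22.6 to 62.0. In all of these the Taf4-inactivated peak lay above the middle of its list and the control peak below it. Rpl3 (49.0 and 78.2), Rpl10a (7.25 and 34.5), Rpl23a (41.2 and 67.5), Rps9 (51.5 and 76.8) and Rpl7a (40.2 and 65.2) were also among the 14.

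The largest differences toward control were those of Rpl7 (93.8 in control and 72.0 after inactivation) and Rpl4 (93.0 and 71.6), a protein of the nascent chain exit tunnel. By the counted peaks, Rpl18 (57.9 and 39.9), Rpl17 (94.0 and 79.7) and Rpl37a (94.2 and 80.6) followed. At Rpl18 the counted peaks lay at different sites. At each site alone its rank was higher after inactivation (9.99 and 39.9 upstream, 57.9 and 68.8 downstream). None of the differences toward control reached 25 points.

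The large differences lay at genes low in control. Of the 78 control peaks, 15 (19.2%) were below percentile 50, against 21.0% of all coding genes with a peak, and of the Taf4-inactivated peaks 4 (5.13%), against 20.3%. Of these 15 genes 13 (86.7%) stood at least 25 points higher after inactivation, with a median difference of 41.4 points. The other two were Rpl35, with a difference of 22.7 points, and Rpl3l, with −7.18. A low starting rank leaves more room above than below, and among other coding genes below percentile 50 in control, 34.7% stood at least 25 points higher and the median difference was 13.0. The 13 genes from percentile 50 to 75 in control had a median difference of 5.49, the 14 from 75 to 90 of 3.61 and the 35 above 90 of −1.82. For other coding genes these medians were −2.78, −7.73 and −3.21.

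The ranking value decided how many genes differed this much. By −log10 p in place of fold, the rank was at least 25 points higher after inactivation in 5 genes (6.49%, against 3.76% of all coding genes) and at least 25 points higher in control in 2 (2.60%, against 10.2%). The 5 were Rps4x (17.1 and 81.1), Rps27 (45.7 and 91.8), Rpl7l1 (33.0 and 77.9), Rps9 (38.9 and 76.9) and Rps28 (42.8 and 76.8), and all were among the 14. The 2 were Rpl3l and Rpl4. All 14 genes kept a higher rank after inactivation by −log10 p, but at Rpl10a the values were 70.7 and 71.7, and at Rpl7a 80.7 and 82.9. Of the 15 genes below percentile 50 by fold in control, 4 were below it by −log10 p.

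**Figure D4:**
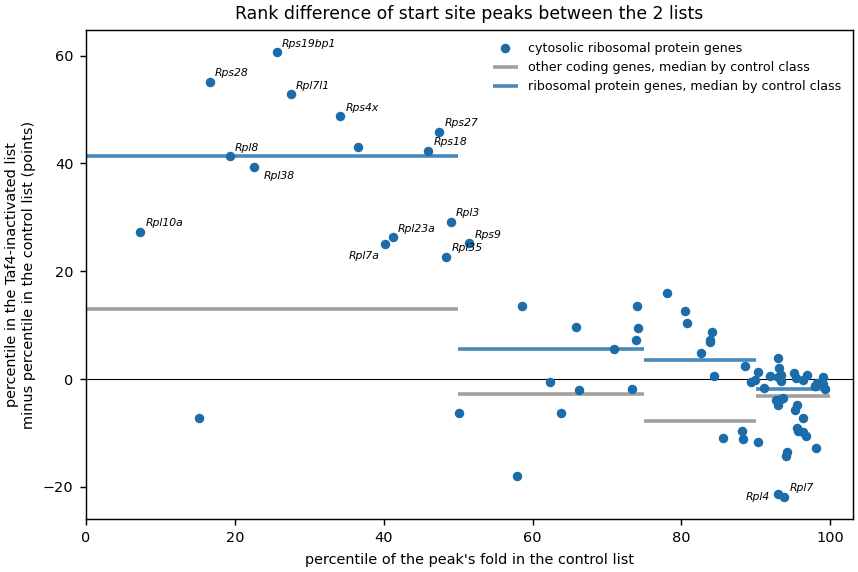
Difference in percentile of fold between the lists (Taf4-inactivated minus control, points) against the percentile in control for the 77 genes with a peak in both lists, with the median of each control class for these genes and for other coding genes (horizontal lines). All genes with a difference of at least 25 points lie at percentile 51.5 or lower in control, and above percentile 90 the class medians are −1.82 and −3.21.

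The peaks were of ordinary to small width for start sites. The median width was 865 bp in control (quartiles 643 and 1149) and 896 bp in Taf4-inactivated enteroids (692 and 1108), against 1048 and 984 bp for other coding genes and 738 and 782 bp for the mitochondrial list. The widest control peaks were those of Rpl3 (3056 bp), Rpl7 (2234 bp) and Rpl14 (1949 bp), and the narrowest those of Rps28 (229 bp), Rps4y2 (312 bp) and Rps9 (313 bp). After inactivation Rpl7 (2262 bp), Rpl7a (2177 bp) and Rpl24 (2012 bp) were widest and Rpl3l (366 bp), Rpl35 (394 bp) and Rpl36 (410 bp) narrowest. Rpl7 alone was among the 3 widest in both lists.

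Peaks of the same gene mostly covered the same DNA. In 76 of the 77 genes the counted peaks of both lists overlapped, and in 66 the shared stretch made up at least 50% of both. The exception was Rpl18, where the counted peaks lay at different sites although both lists held a peak at each. Neither these overlaps nor the width ratios below were counted over all coding genes, so they cannot be called particular to these genes. The median ratio of widths was 0.994 (quartiles 0.806 and 1.25), with 39 genes wider in control and 38 wider after inactivation. A ratio beyond 1.5 was seen in 11 genes in each direction. The peak of Rpl3 was 3056 bp wide in control and 889 bp after inactivation, and that of Rpl24 347 and 2012 bp. At Rpl24 the rank was nearly the same (84.4 and 85.0).

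The peaks were centred close to the main start. The midpoint lay at a median of 43.2 bp downstream in control and 48.0 bp after inactivation, against 112 and 82.0 bp for other coding genes. In the mitochondrial list the medians were 59.5 and 63.2 bp, and in the proteasome list 122 and 71.5 bp. Within 200 bp of the start lay 49 of 78 member midpoints in control and 50 of 78 after inactivation. This was not counted over all coding genes, so it cannot be called particular to the members. At distances where cover was at least 50% of its maximum, member peaks reached from 350 bp upstream to 450 bp downstream in control and from 350 to 400 bp after inactivation. For other coding genes this was from 400 bp upstream to 650 and 550 bp downstream. The mitochondrial list was as narrow as the members, from 300 to 350 bp in control and from 350 to 400 bp after inactivation. For the proteasome list it was from 350 to 600 bp and from 300 to 450 bp. Beside Rpl3l, the farthest upstream midpoints in control were those of Rpl14 (−659 bp) and Rpl7 (−614 bp), and after inactivation these stood at −54.5 and −660 bp. Beside Rpl18, the farthest downstream were those of Rpl3 (822 bp) and Rpl35 (632 bp), and after inactivation −215 and 462 bp. In 4 genes (Rpl13a, Rpl18, Rpl24 and Rps18) more than 1 peak lay within 1 kb of an annotated start in control, and in 3 of them, all but Rps18, after inactivation. Over all coding genes with a peak, this held for 2794 of 15290 in control and 2199 of 14662 after inactivation.

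**Figure D5:**
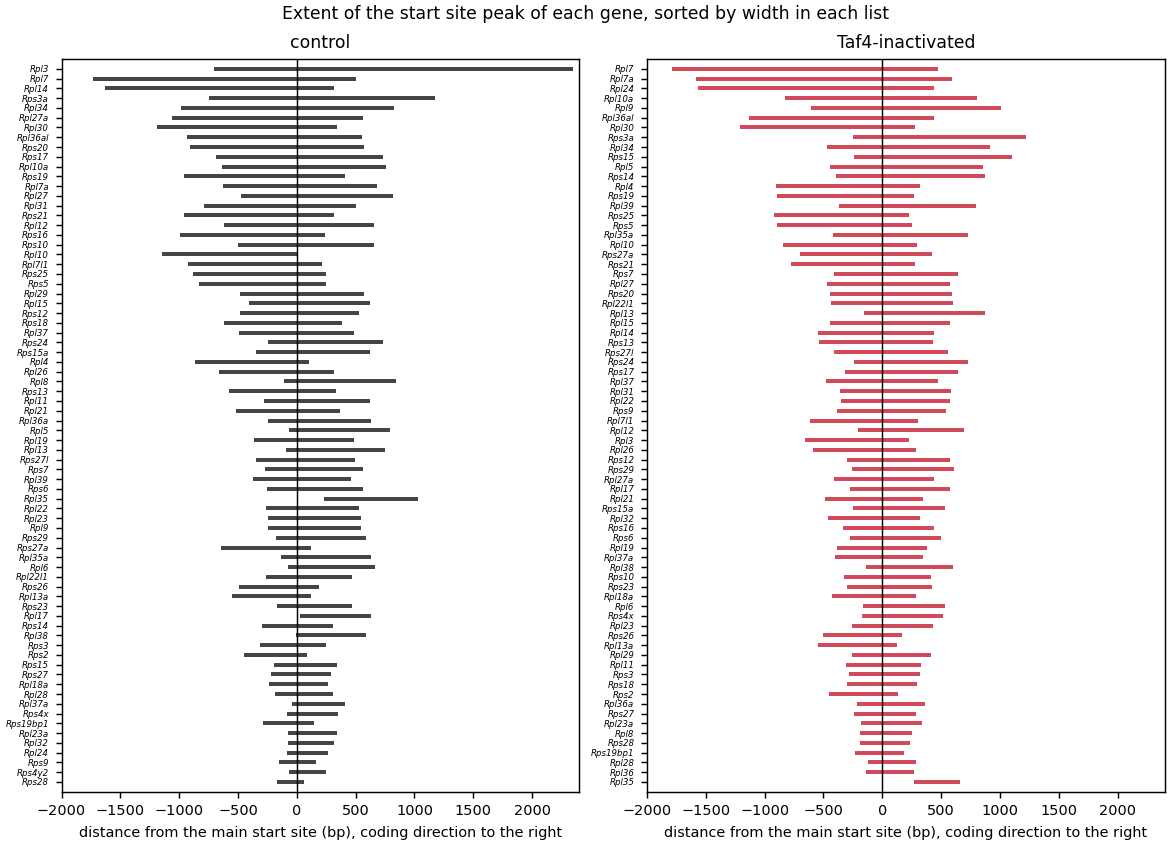
Extent of the start site peak of each gene relative to its main start site (bp, coding direction to the right), sorted by width within control and within Taf4-inactivated enteroids. Rpl18 and Rpl3l, whose counted peaks lie over 2 kb away, and 2 further genes are not drawn, and the drawn bars cross the start except those of Rpl35 in both lists and Rpl17 in control.

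Most subsets of the genes had medians close to each other. The 45 Rpl genes with a control peak had a median percentile of 89.3, and the 33 Rps genes of 84.1, and after inactivation the medians were 85.1 and 88.8. The 28 genes with a snoRNA gene inside had median percentiles of 90.7 and 88.2, and the 53 without one of 84.2 and 86.2. The 11 genes with a divergent coding start had 93.0 and 86.1, and the others 85.6 and 87.4. In the top 10% of the list were 7 of these 11 in control and 1 after inactivation, against 41.8% and 38.8% of the others with a peak. The median rank difference of the 11 was −4.88 points, against 0.616 for the others. The 23 genes with ETS letters had median percentiles of 89.2 and 89.7, and the 58 without them 86.9 and 85.7. None of these splits was tested, and single genes spread over far more than the gaps between the medians.

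Ribosomal protein genes have many retrocopies in the genome, and the authors kept only reads with a unique position. The share of 32-base words that occur once in the genome was therefore counted. In the 500 bp before the main start it was 100% at the median member, as at other coding genes. In the 500 bp after it the median was 94.9% (quartile 84.4%, lowest 60.6% at Rps2), against 100% at other coding genes and 29.0% at the retrocopies. Of members with at least 10% of these downstream words repeated, 30 of 32 had a peak in each list, at median percentiles of 86.3 and 88.8, and of the other 49 members 48 did, at 88.4 and 85.7. The 15 genes below percentile 50 in control had a median of 98.5%. The part of repeated sequence in the position of single peaks was not tested.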

How the data were processed

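Enteroids of 1 control and 1 Taf4-inactivated culture were analysed by ATAC-seq, grouped by the genotype in the labels. Per the study's methods and the submitters' processing notes, the authors demultiplexed reads with bcl2fastq 2.17.1.14, mapped them to mm9 with Bowtie 1.0.0, keeping reads with a unique position, and called broad peaks per library with MACS2 2.1.1, without a model and with shifted and extended reads. The deposited fold is an enrichment over the local background of the same library and, like −log10 p and −log10 q, was averaged over the peak by the authors before they deposited it. The deposited score, a whole number that follows the −log10 q, was not used. Treatment of duplicate and mitochondrial reads is not given in the sources used here. Since lists were called per library, presence and q depend on depth, which was only estimated, from the background level that gives both the fold and the p of a peak (5th percentile over the narrowest 10% of peaks).

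Start sites came from GENCODE (NCBIM37, mm9), and all peaks lay within its chromosomes. A gene had a peak when a peak edge lay within 1 kb (1000 bp) of any annotated transcript start. Where several did, the one nearest to the main start was used. Starts within 100 bp of each other were pooled to find the main start. Positions were converted to 1-based coordinates. Python 3.11.15, numpy 2.4.6, pandas 2.3.3, scipy 1.17.1, numba and matplotlib were used. Peak choice, offsets, widths, ranks and joining were tested on simulated data of 2000 genes, where 5 of 5 steps returned what had been put in. With 1 library per genotype, no test between genotypes was made and no p-value is given. Comparisons with other gene lists are counts and medians without a test. The members and lists were chosen with earlier results of these data known. Named genes were those without a peak, with several peaks, with the highest or lowest ranks, the largest rank differences, the widest, narrowest or most displaced peaks, paralogues, and 11 members known for other functions, and a few genes that this rule names are not reported here. Alternatives changed the q threshold, the distance, the starts, the members, the peak chosen, the ranking value, the list ranked in and the joining of peaks. RefSeq starts, members whose peaks cover the main start in both lists, lists of equal size and ranks among the peaks counted for coding genes were added after seeing the data. Of the 81 members, 60 had a RefSeq promoter.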

Additional observations from a re-analysis of the deposited data

How the results depend on the processing

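Of 97 values of the 9 summaries under the alternatives, 79 lay within the 95% interval of the value in the text, 18 outside it, and 0 changed the sign of a value whose interval left out 0. With peaks kept from a −log10 q of 2 on, the median percentile in Taf4-inactivated enteroids was 79.0 and the median rank difference 4.29 points. With at least 5, the share of members with a peak in control was 54.3%, the median percentiles 47.1 and 56.2, and the rank difference 8.43, over fewer and stronger peaks. Without paralogues and Rps19bp1, 100% had a peak after inactivation. Ranked by width, the median percentiles were 69.3 and 75.1 and the difference 3.55. Ranked among all peaks within 1 kb of a coding start, they were 63.8 and 66.8, and the difference 5.59. Ranked among the 1 peak counted for each coding gene, a choice made after seeing the data, they were 56.7 and 62.3, and the difference 8.21. Lists of equal size, chosen after seeing the data, gave a difference of 2.71. From the most upstream coding start, the midpoint offset after inactivation was 79.8 bp. Where the sources of these shifts are not in the construction of the alternative, the cause was not tested. The count of members at least 25 points higher after inactivation was 5 by −log10 p, 8 by width, 9 among all peaks near coding starts and 12 to 16 under the others. The count at least 25 points higher in control was 0 to 3. These counts are out of the members with a peak in both lists, 77 in the main setting and 43 with a −log10 q of at least 5. Over all coding genes, the shares higher after inactivation and higher in control were 6.90% and 9.49% by fold. They were 3.76% and 10.2% by −log10 p, and 7.11% and 8.22% among the counted start site peaks. For the other alternatives these shares were not computed.

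No paired analysis was possible because each genotype had 1 library, and leaving out a library would have left a genotype empty. Intervals cover counting error or the spread between genes, not between cultures. Read numbers were not used here, so the depth behind a single peak is unknown. A member without a peak had none past the authors' threshold at this depth, which does not show closed chromatin. Reads in repeated sequence downstream of the start were removed by unique mapping. Main starts of the annotation lay over 50 bp from the RefSeq start in part of the members, which moves offsets and tract matches.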

Other observations

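Retrocopies of ribosomal protein genes give a contrast to their parents. Of the 53 with a -ps symbol that the annotation lists as coding, 4 had a peak within 1 kb in each list (7.55%), and 0 of these peaks covered the start. The median midpoint lay at −1089 bp (control) and −1010 bp (Taf4-inactivated). Their windows held a pyrimidine tract in 50.9% and YY1 letters in 30.2%, shares near or above those of the members (51.9% and 13.6%), but GC box letters in 1.89% against 46.9%, with a median GC content of 45.0% against 59.6%. Uniquely occurring words made up a median of 96.8% of the 500 bp upstream of their starts and 29.0% of the 500 bp downstream.

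Among X-linked members, Rpl10 (percentiles 96.4 in control and 89.3 after inactivation), Rpl36a (82.6 and 87.4), Rpl39 (90.3 and 78.5) and Rps4x (34.1 and 82.9) all had a peak in both lists. Rps4x had the largest difference of all members by −log10 p, 64.0 points.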
